A study of Mus musculus with 3 samples.

Results

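The comparison concerns gene expression in mouse embryonic fibroblasts (MEF) treated with 40 µg/ml n-butylidenephthalide (BP40) against control MEF, limited to genes with bright signals. A bright gene has a probe that the scanner software called well above background on all 3 arrays of the series, and its normalized log2 signal averaged above 0 over these arrays. Normalized means that the 75th percentile of an array's gene spots was subtracted, so a value of 0 lies at that percentile. The average includes the arrays compared, so a gene can pass the rule through the array where it is high. Of 55681 gene probes, 13102 met the rule, and they stood for 10850 of the 35192 genes and transcripts with a value on all 3 arrays. Each is represented by its brightest member probe, and 1813 have more than 1 member probe. The differences below are BP40 minus control on the log2 scale, where 1 is 2-fold.

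MEF were primary cells from C57BL/6 embryos, grown in DMEM with fetal bovine serum after heads, legs and internal organs were removed. n-Butylidenephthalide (BP) is a phthalide found in Angelica sinensis. One array each was hybridized for control, BP at 10 µg/ml (BP10) and BP40, with a single colour (Cy3). The labels record no treatment for the control, the study describes it as DMSO vehicle, and the length of treatment was not given in the sources used here. With 1 array per condition there is no spread between cultures, no test and no p-value. A difference therefore compares 2 arrays.

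Fibroblasts are the main makers of interstitial collagens and of the proteins that assemble, crosslink and decorate collagen fibres. Cells meet reactive compounds with NRF2, a transcription factor that binds antioxidant response elements and drives genes for glutathione synthesis, quinone reduction and NADPH supply. ID proteins, which lack a DNA-binding region and hold basic helix-loop-helix factors inactive, and SMAD6, an inhibitory SMAD, are classical targets of bone morphogenetic protein (BMP) signaling. In bulk RNA, fewer cells of a type and less RNA per cell cannot be told apart.

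Several properties of the arrays touch the results. All 3 arrays lay on 1 slide, but per the file headers the control was scanned in another session than BP10 and BP40, so scan session and BP treatment cannot be told apart. Spots well above background made up 81.7% of gene spots for control, 68.3% for BP10 and 69.1% for BP40, and no gene spot was saturated. Log2 signals of a probe printed 10 times differed between spots by a median SD of 0.09 for control, 0.05 for BP10 and 0.06 for BP40. Between different member probes of a gene, the SD of the difference had a median of 0.14 over 1813 genes and a 95th percentile of 0.49. Both errors are technical and say nothing of cultures.

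Most bright genes differed little between BP40 and control. The median difference was 0.05, the SD over genes was 0.39, and 9800 genes (90.3%) lay within 1.5-fold. Of the 10850 genes, 90 were at least 2-fold higher in BP40, a background share of 0.829%, and 101 were at least 2-fold lower, a share of 0.931%. At 1.5-fold, 5.06% of the genes were higher (549 genes) and 4.62% were lower. Higher genes made up 47.1% of those past 2-fold, but this split depended on the scaling. It was 36.2% when the percentile was taken over probes above background on all arrays, with 77 genes higher and 136 lower. It was 33.2% after the median of each class of probe base composition was subtracted, and 30.8% after the median of the surrounding spots was subtracted. The median of all bright genes became -0.02 with the percentile over probes above background on all arrays. Counts of list genes above or below 0 thus depend on the scaling, and the share over all bright genes is not given here.

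**Figure D1:**
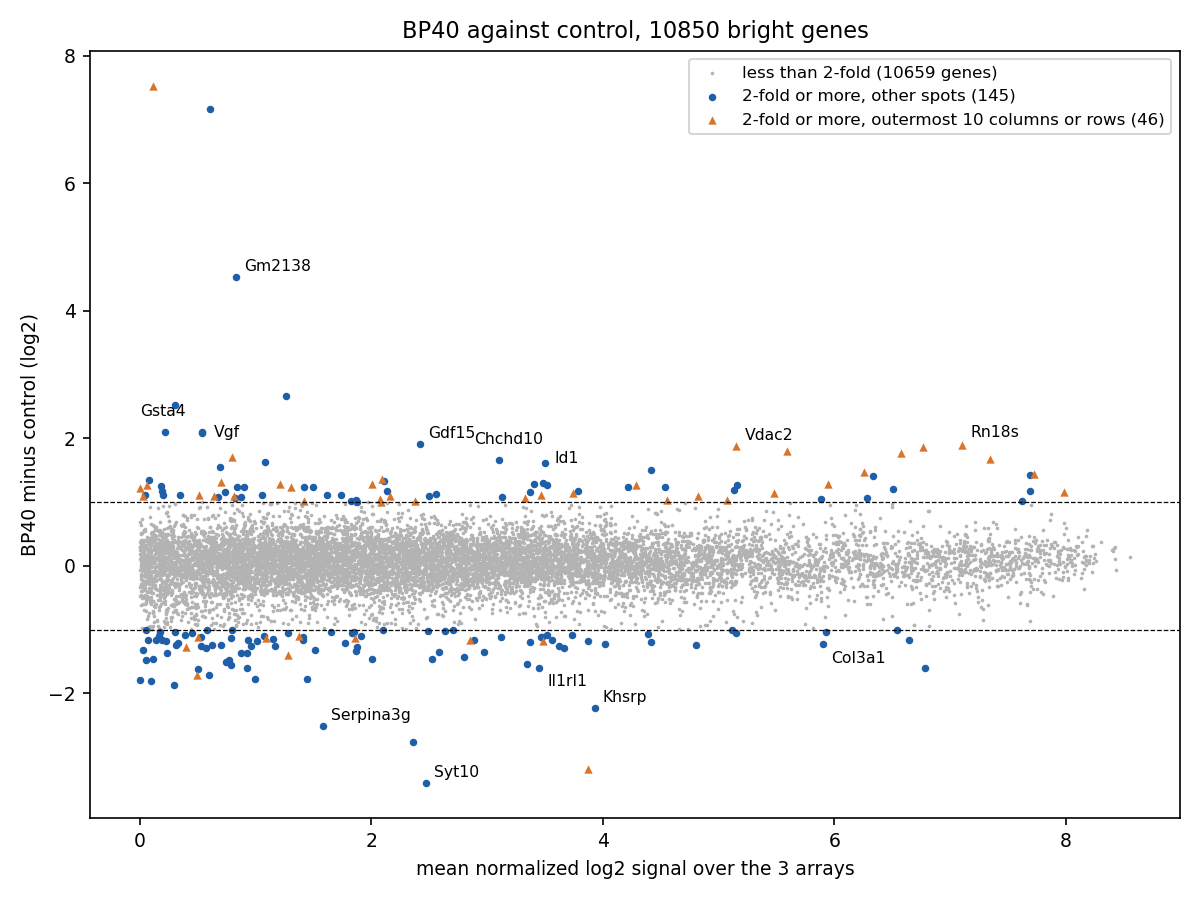
The BP40 minus control difference (log2, vertical axis) is plotted against its normalized log2 signal averaged over all arrays (horizontal axis) for 10850 bright genes. Grey points are within 2-fold, blue points are past 2-fold (dashed lines), and orange triangles are past 2-fold with a spot in the outermost 10 columns or rows of the array; 3 probes lie above 4, where no lower gene reaches a similar size.

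Position on the array moved with the higher genes. The array has 384 rows and 164 columns, and the 1779 bright genes measured by a single spot in the outermost 10 columns or rows had a median difference of 0.16, against 0.03 for the other 9071. Of the genes at the edge, 36 were at least 2-fold higher (2.02%) and 10 at least 2-fold lower (0.562%). Away from the edge, 54 were higher (0.595%) and 91 lower. The first 10 columns alone held 22 of the higher genes among 642 bright genes. Below, the median difference of the 100 nearest bright spots, called the local median, is given where it matters. It ranged from -0.22 to 0.41 over the array, and subtracting it left 53 of the 90 higher genes and 91 of the 101 lower genes past 2-fold. The part of array position in any single difference was not tested.

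**Figure D2:**
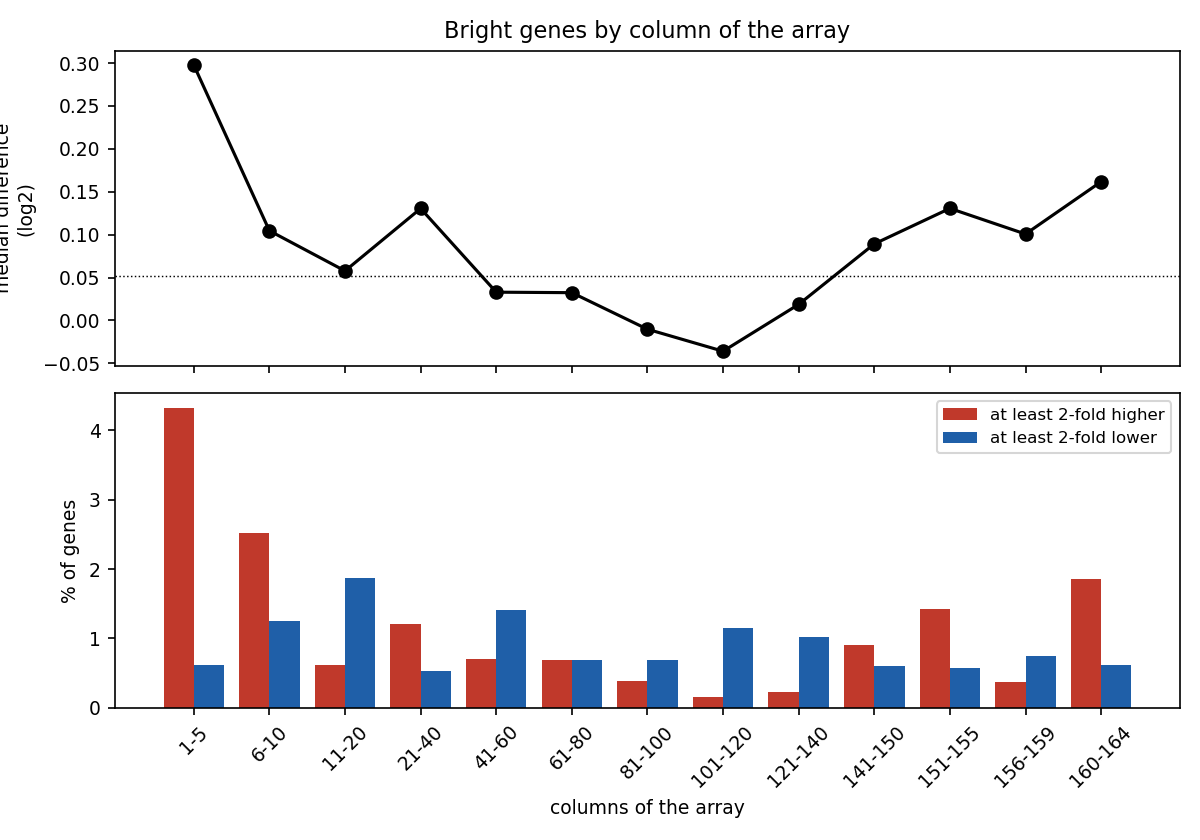
The upper panel shows the median BP40 minus control difference (log2) of bright genes measured by a single spot in each range of array columns, with the overall median as a dotted line. The bars below give the percentage of these genes at least 2-fold higher (red) or lower (blue) in BP40; columns 1 to 5 stand highest, with 4.32% of 324 genes higher.

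Genes of the NRF2 response leaned upward in BP40. Of 28 listed NRF2 target genes 24 were bright, 4 of them were at least 2-fold higher and none was lower, and 10 were at least 1.5-fold higher with none lower. Their median difference was 0.46 against 0.05 for all bright genes. The median was 0.36 over the 18 measured away from the edge and 0.32 after subtraction of the local median. Glutathione S-transferases, which couple glutathione to reactive molecules, had a median of 0.26 over 14 bright members. The 2 at least 2-fold higher were Gsta4 and Gstm1, each with a limit given below. Over the 12 transferases away from the edge the median was 0.11.

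The signals of the leading members were as follows. Gsta4, a glutathione transferase for lipid aldehydes such as 4-hydroxynonenal, is measured most closely, since its probe was printed at 10 places on each array. Its normalized log2 signal was -0.77 ± 0.12 in control, 0.09 ± 0.12 in BP10 and 1.33 ± 0.11 in BP40 (SD over 10 spots each). The spots of the 3 arrays did not overlap, running from -0.96 to -0.60, from -0.12 to 0.24 and from 1.06 to 1.46. The difference of 2.09 is 4.27-fold. Gsta4 passed the brightness floor only through BP40, with an average of 0.22 over the arrays. The spot SD covers the array measurement and not the culture.

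Nqo1 encodes a quinone reductase and is a standard NRF2 target. Its log2 signal was 0.07 in control, 0.65 in BP10 and 1.38 in BP40, a difference of 1.31, with its spot at the array edge and a local median of 0.21. Srxn1, the sulfiredoxin that repairs oxidized peroxiredoxins, was flat at the lower dose, with 3.82, 3.77 and 5.06, a difference of 1.24 that became 0.98 after the local median of 0.26. Glutamate-cysteine ligase makes the first step of glutathione synthesis. Its modifier subunit Gclm had -0.28, 0.48 and 0.84, a difference of 1.11 with a local median near 0, at -0.02. Its catalytic subunit Gclc had 1.76, 2.32 and 2.60, a difference of 0.84. Both subunits were thus highest in BP40 and lowest in control.

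Pgd, an NADPH-producing enzyme of the pentose phosphate pathway, had 4.14, 4.36 and 5.17. Its difference of 1.03 came from an edge spot and was 0.70 after the local median and 0.54 with normexp background correction. Gstm1 had 1.97, 2.47 and 3.06, a difference of 1.09 for the brightest probe and 0.48 for its second bright probe. The brightest probe is placed on chromosome 5 in the array file, whereas RefSeq has Gstm1 on chromosome 3, and Gstm genes are near-identical copies, so the value is uncertain. Of 115 RefSeq-named genes past 2-fold, Gstm1 was the only one whose probe lay on another chromosome.

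Other listed members passed only 1.5-fold. Blvrb, a biliverdin reductase, differed by 0.87, Hmox1, heme oxygenase, by 0.72, Fth1, the ferritin heavy chain, by 0.66 and Prdx1, a peroxiredoxin, by 0.60. The second bright probes of Hmox1 (0.35) and Prdx1 (0.24) did not pass 1.5-fold. Txnrd1, thioredoxin reductase and also a classical target, differed by 0.26, Me1 by -0.02 and Osgin1 by -0.22. The response was therefore uneven within the list. Akr7a5, an aldehyde reductase outside the NRF2 list, had 0.31, 0.91 and 1.39, a difference of 1.08. Its own list, carbonyl and aldehyde enzymes, was mixed. Of 21 bright members 5 were at least 1.5-fold higher and 4 at least 1.5-fold lower. Their median was 0.16 and the lowest was Aldh18a1 at -0.78. The metallothioneins, small metal-binding proteins, were just short of 2-fold and took the opposite course at the lower dose. Mt1 had 6.45, 5.67 and 7.37 and Mt2 had 5.71, 4.46 and 6.69, differences of 0.92 and 0.98 for BP40 minus control and of -0.77 and -1.25 for BP10 minus control.

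The upstream sequence of these genes was searched for the core of the antioxidant response element, TGACNNNGC on either strand, from 250 bases before to 50 after each RefSeq start (GRCm38.p6). At least 1 match was found in 3781 of 27025 genes with a promoter, in 17.2% of 6857 bright genes, in 12 of 38 genes at least 2-fold higher in BP40 and in 8 of 41 at least 2-fold lower. Of 33 bright NRF2 and glutathione transferase genes with a promoter 9 held it, and of the 10 that were at least 1.5-fold higher 4 did. The other 5 motifs searched included AP-1 (TGANTCA) and the TATA box (TATAAA). The TATA box had the same counts in these sets, 9 of 33 and 4 of 10, against 8.46% of bright genes, and AP-1 was in 7 of 33 and 2 of 10, against 5.70% of bright genes. CATTCC (TEAD) was in 3 of 33, CACGTG (E-box) in 0 and CCAAT in 17. The counts are small and describe letters, not binding sites, and the Prdx1 match overlaps the AP-1 letters. The 4 stretches are shown because they belong to genes of the list that were higher in BP40, with the matched letters in capitals. The matches for Gclm and Prdx1 begin 134 and 133 bases before the start, and those for Pgd and Srxn1 begin after it. Gclm is at chr3:122245378-122245476 (+), Prdx1 at chr4:116685421-116685519 (+), Pgd at chr4:149166060-149166089 (-) and Srxn1 at chr2:152105542-152105571 (+).
Gclm: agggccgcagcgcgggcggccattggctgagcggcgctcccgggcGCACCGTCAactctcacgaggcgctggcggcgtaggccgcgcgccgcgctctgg
Prdx1: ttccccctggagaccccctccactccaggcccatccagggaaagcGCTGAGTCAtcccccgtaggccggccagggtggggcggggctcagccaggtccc
Pgd: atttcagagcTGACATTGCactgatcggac
Srxn1: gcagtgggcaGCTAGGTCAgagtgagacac

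In TGF-beta and BMP signaling, 40 of 50 listed genes were bright, 5 were at least 2-fold higher and none was lower. The list as a whole had a median of 0.09, close to that of all bright genes, so the change lay in few members. Gdf15, a stress-responsive secreted factor, had 1.54 in control, 2.27 in BP10 and 3.45 in BP40, a difference of 1.91. Id1 had 2.52, 3.84 and 4.13, a difference of 1.61. Id3 had 3.71, 4.96 and 4.94, a difference of 1.23. All 3 genes were higher on both BP arrays than in control, by 1.32 for Id1, 1.26 for Id3 and 0.72 for Gdf15 at the lower dose.

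Id2 had 1.94, 2.67 and 3.06, a difference of 1.12, and Id4 had 0.70, 1.74 and 1.45, a difference of 0.75. Smad6, an inhibitor of BMP signaling, had 0.15, 1.12 and 1.21, a difference of 1.06. These spots lay away from the array edge, and the local median was between -0.08 and 0.07. Smad7, the other inhibitory SMAD, had 1.90, 2.04 and 1.92 (0.02). Among ligands, Bmp4 was lower in BP40 by 0.75, at 2.19, 2.19 and 1.44, and Inhba, an activin subunit, was higher by 0.67. No second bright probe was measured for Gdf15, Id1, Id2, Id3, Id4 or Smad6.

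The collagen and matrix genes leaned the other way. Of 26 listed collagen chains 17 were bright, 2 were at least 2-fold lower, 8 at least 1.5-fold lower and none higher at either fold, with a median of -0.55. Of 54 listed proteoglycans and matricellular proteins 40 were bright, 5 were at least 2-fold and 15 at least 1.5-fold lower, 1 was at least 1.5-fold higher, and the median was -0.31. Of 25 collagen processing enzymes 24 were bright, with 2 at least 2-fold lower and a median of -0.16. Away from the edge the 3 medians were -0.55, -0.36 and -0.16. The collagen and fibroblast marker lists share members.

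Col3a1, the chain of type III collagen, had 6.57 in control, 5.81 in BP10 and 5.34 in BP40, a difference of -1.23. Col11a1, a chain of a minor fibrillar collagen, had 1.88, 0.62 and 0.28, a difference of -1.60. For type I collagen the chains differed, since Col1a1 had 7.82, 7.07 and 6.96 (-0.85) and Col1a2 had 8.28, 7.96 and 8.37 (0.09). The basement membrane chains Col4a1 and Col4a2 differed by 0.13 and 0.11. The chains of type I collagen thus did not share a difference.

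Of the 40 bright proteoglycan and matricellular genes 12 were above 0, and the 5 past 2-fold were Efemp1, Tgfbi, Ccn5, Postn and Fbn2. Efemp1, a fibulin, had 3.73, 2.82 and 2.37, a difference of -1.36. Tgfbi, which links collagens to integrins, had 4.46, 2.91 and 3.30, a difference of -1.16 that was larger at the lower dose. Postn, periostin, had 6.51, 5.80 and 5.47, a difference of -1.04. Ccn5 (-1.12) and the crosslinking enzyme Loxl3 (-1.16) were lower only on the BP40 array, at 3.46, 3.57 and 2.34 and at 3.27, 3.28 and 2.11. Loxl4, a related oxidase, had 0.84, 1.03 and -0.28, a difference of -1.12, and its second bright probe differed by -1.22. Fbn2, a fibrillin of elastic microfibrils, differed by -1.02 and its second bright probe by -0.87. Nid2, a basement membrane linker, differed by -1.06, and Ccn1, a matricellular protein encoded by an immediate early gene, was the exception at 0.71.

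The labelled cell type was checked on its markers. Of 18 fibroblast markers 17 were bright on these arrays, with a median difference of -0.47. Col3a1 was the only one past 2-fold and 7 were past 1.5-fold lower, among them Pdgfra, a receptor that marks mesenchymal fibroblasts. Pdgfra was printed 10 times and had 2.69 ± 0.14 in control, 1.74 ± 0.06 in BP10 and 1.72 ± 0.06 in BP40 (SD over spots). Of the 17 bright markers 13 were below 0 and 4 above, the highest at 0.21. Thy1 differed by -0.67, Vim by -0.36 and Fn1 by 0.14. Beside them, 9 of 17 macrophage markers were bright, with differences from -0.43 to 1.25 and a median of 0.19. The macrophage lysozyme gene Lyz2 had -0.60, 0.49 and 0.65 (1.25), while Csf1r, the macrophage growth factor receptor, differed by 0.29. Lyz2 passed the brightness floor only through BP40, with an average of 0.18 over the arrays. Epithelial (2 of 12), endothelial (3 of 11) and skeletal muscle (1 of 17) markers were mostly not bright. None of the erythroid markers was bright. The part of other cells in the differences was not tested.

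**Figure D3:**
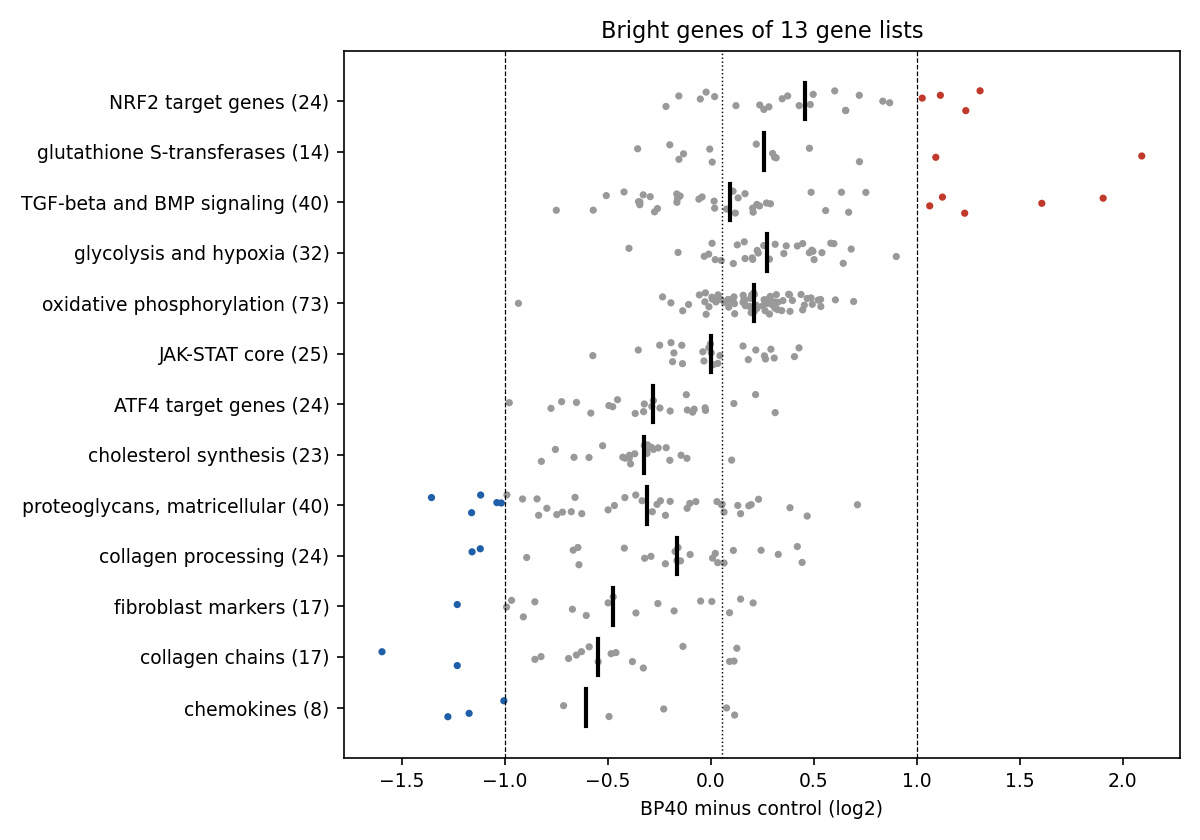
Each point is a bright gene of 1 of 13 lists, placed by its BP40 minus control difference (log2); the number of bright genes stands beside each name. Black bars are list medians, from 0.46 for NRF2 target genes to -0.60 for chemokines, the dotted line is the median of all bright genes (0.05), and genes past 2-fold (dashed lines) are red or blue.

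Chemokines recruit leukocytes. Of 23 listed ones 8 were bright, 3 of them were at least 2-fold and 4 at least 1.5-fold lower, and 2 were above 0, with a median of -0.60. Ccl2, the monocyte attractant, was printed 10 times and had 5.59 ± 0.13 in control, 5.18 ± 0.10 in BP10 and 4.58 ± 0.08 in BP40, a difference of -1.0 that lies at the threshold (SD over 9, 10 and 10 spots). Cxcl5, a neutrophil attractant, had 3.14, 0.62 and 1.87 (-1.28), and Cxcl14 had 4.81, 3.16 and 3.64 (-1.17). Both were lowest on the BP10 array. Il1rl1, the receptor for IL-33, had 4.42, 3.12 and 2.82, a difference of -1.60 with -1.16 at its second bright probe. Serpina3g, a serine protease inhibitor of a family of close copies that is on no list used here, had 2.65, 1.95 and 0.14 (-2.51).

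Pf4, a platelet chemokine gene near Cxcl5 on chromosome 5 that was not on the list, had 1.5, -0.15 and 0.24, a difference of -1.26. The probes of Pf4 and Cxcl5 lie 11.8 kb apart and share 12 of 60 letters in register. Over the NF-kB factors and targets, 16 of 35 were bright, 3 were at least 2-fold lower (Il1rl1, Cxcl5 and Ccl2), 6 were above 0 and the median was -0.21. Of the interferon-stimulated genes none of 16 bright members passed 1.5-fold and the median was 0.20.

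**Figure D4:**
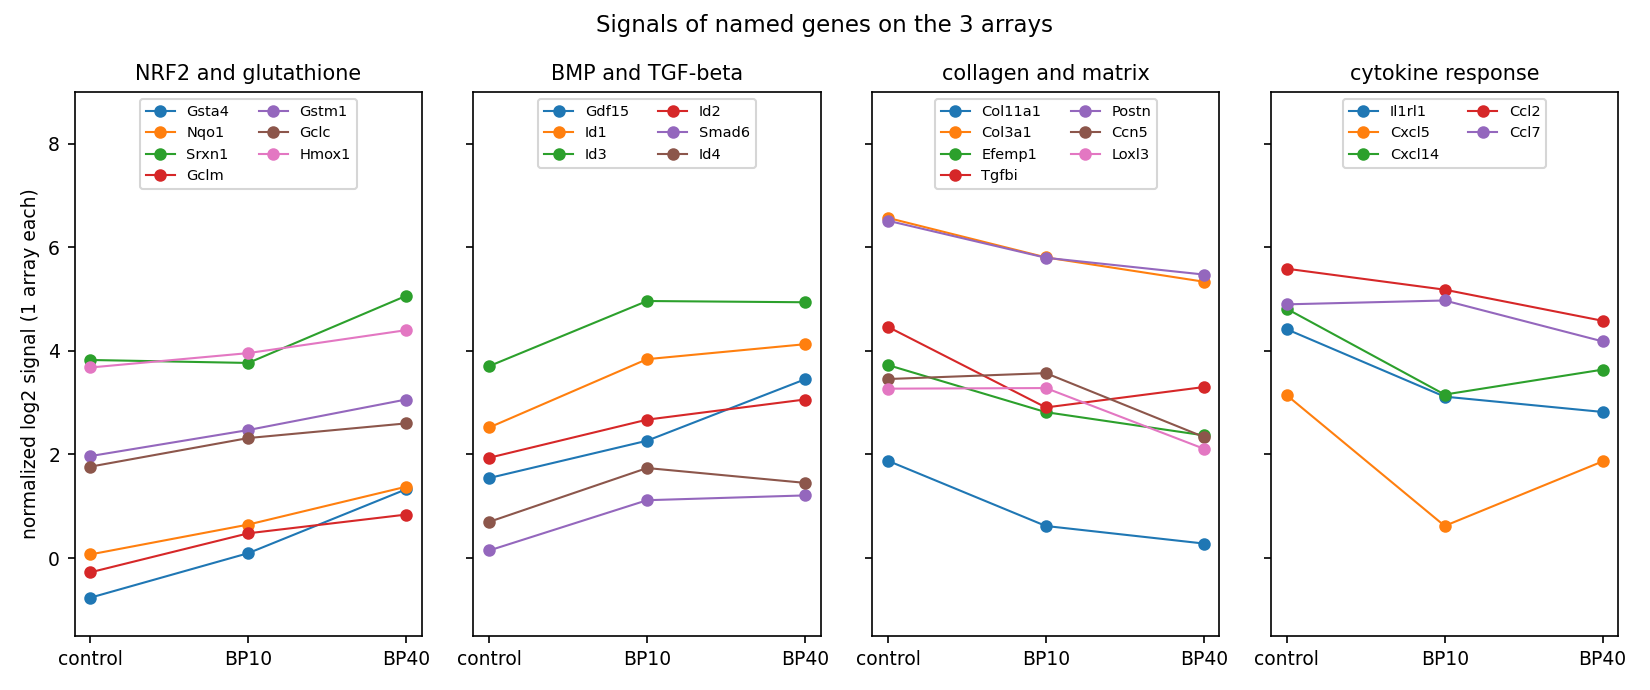
Normalized log2 signals of named genes are shown on the control, BP10 and BP40 arrays, 1 array each, in 4 panels by group. Lines join values of a gene and are guides for the eye; Gdf15 and Gsta4 climb at both steps, while Col3a1 and Il1rl1 descend at both.

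Among imprinted genes 19 of 26 were bright and 3 were at least 2-fold lower. Mest, printed 10 times, had 2.87 ± 0.05 in control, 1.75 ± 0.07 in BP10 and 1.41 ± 0.02 in BP40 (SD over 10, 7 and 6 spots kept), a difference of -1.47. Its second bright probe differed by -1.53. Cdkn1c, a cell cycle inhibitor of growing embryos, had 2.17, 1.52 and 0.85 (-1.32). Slc38a4, an amino acid transporter, had 2.33, 1.94 and 1.29 (-1.04). Dlk1 (0.65) and H19 (0.14) did not share this direction. Of the 19 bright imprinted genes 11 were below 0 and 8 above. Their median was -0.12 against 0.05 for all bright genes, and -0.17 away from the edge.

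Signaling genes with larger falls included Lgr5, a receptor for R-spondins, at 1.14, 0.46 and -0.73 (-1.86), and Dkk2, a Wnt antagonist, at 1.51, 0.48 and -0.20 (-1.71). Lgr5 passed the brightness floor only through control, with an average of 0.29 over the arrays. Of 18 bright Wnt genes Dkk2 was the only listed one past 2-fold. Wnt1, a ligand that was not on the list, was higher by 1.09 at an edge spot, with 0.68 at a dim second probe. Pparg, a nuclear receptor of fat cell differentiation, was printed 10 times and had -0.06 ± 0.13 in control, 1.40 ± 0.04 in BP10 and 1.18 ± 0.10 in BP40, a difference of 1.24. The other 5 bright adipocyte genes did not pass 1.5-fold, and the median of all 6 was -0.02.

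Metabolic lists moved by less than 2-fold. Of 26 cholesterol synthesis genes 23 were bright and 22 of these were below 0, with a median of -0.32 and 4 at least 1.5-fold lower. Cyp51, a sterol demethylase, had 2.47, 1.94 and 1.65 (-0.82). Of the fatty acid synthesis genes 14 were bright, with a median of -0.33 and 12 below 0, and Elovl6, a fatty acid elongase, had 3.90, 3.37 and 3.0 (-0.91). ATF4 targets, the amino acid and stress response genes, had 21 of 24 bright members below 0 and a median of -0.28, with Slc7a5, an amino acid transporter, lowest at 2.91, 1.95 and 1.93 (-0.98).

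Glycolysis and hypoxia genes had 28 of 32 bright members above 0 and a median of 0.27 for BP40 minus control, but -0.38 for BP10 minus control. Bnip3, a mitophagy receptor induced by hypoxia, had 5.05, 3.41 and 5.95 (0.90), with 0.53 at its other bright probe. Oxidative phosphorylation subunits had 63 of 73 bright members above 0 and a median of 0.21, but -0.26 for BP10 minus control. Over all bright genes these 2 medians were 0.05 and -0.11, and over those with a mean signal over 6 they were 0.07 and -0.23. None of the oxidative phosphorylation subunits passed 2-fold. Dusp1, a stress-induced phosphatase of the immediate early genes, had 1.26, 1.93 and 2.27 (1.01, and 0.91 after the local median), the only one of 21 bright genes of its list past 2-fold. Heat shock proteins (median 0.15 over 23), endoplasmic reticulum chaperones (-0.22 over 19), mitosis genes (-0.02 over 35) and Hox genes (0.05 over 20) held no gene past 2-fold.

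The study followed the JAK-STAT pathway and pluripotency genes. Its rises of Jak2, Stat3 and cytokines were reported in embryonic stem cells at lower doses, partly as protein, whereas the values here are MEF RNA. From these arrays it placed JAK-STAT among the most deregulated pathways, using a larger gene set than the list here. Most of the deregulated JAK-STAT genes it counted were down-regulated. Of 34 JAK-STAT core genes 25 were bright, none passed 1.5-fold, the lowest was Il6st at -0.57 and the median was 0.00. Jak2 had 2.14, 1.66 and 1.89 (-0.25) and Stat3 had 4.35, 3.93 and 4.38 (0.03). Among 13 genes chosen because PCR assays exist for them in the source publication 6 were bright. Beside Jak2 and Stat3 these were Klf4 (-0.39), Myc (-0.38), Actb (0.14) and Il11, a cytokine of the gp130 family. Il11 had 1.05, 0.94 and 2.04, a difference of 0.98 just short of 2-fold. Pou5f1 and Sox2 were not bright. Sex-linked genes served to compare the embryos behind the arrays. The Y-linked Ddx3y had 1.71, 1.09 and 1.74, and Eif2s3y had 1.88, 0.80 and 1.72, so control and BP40 differed by 0.03 and -0.16 while BP10 was lower.

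Of the 20 largest rises, from 1.54 to 7.53, 9 were RefSeq-named genes and 8 were edge spots. The 3 largest were single spots that were dim on both other arrays. Their averages passed the brightness floor only through BP40, yet they count among the 90 higher genes. A lincRNA probe in chr16:59557120-59602070 had -2.33 in control, -2.55 in BP10 and 5.20 in BP40 (7.53), another in chr9:96632664-96653249 had -1.89, -1.56 and 5.27 (7.17), and Gm2138 had -0.31, -1.42 and 4.22 (4.53). Their pixels varied more on the BP40 array than those of 99% of bright spots, with a pixel SD of 31.1%, 28.9% and 25.6% of the spot mean against a 99th percentile of 19% and a median of 8.53%.

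Other probes of the lincRNA regions did not share these jumps, and Gm2138 had only 1 member probe. For the chromosome 16 region 7 other probes were above background on all arrays, with differences from -0.93 to 1.29, and for the chromosome 9 region 2 others had 0.33 and 0.40. The 3 probes are shown so that the values can be traced to letters. They lie at chr16:59597168-59597227 (-), chr9:96652869-96652928 (-) and chr11:92958153-92958212 (-) in mm9, the build of the array files.
lincRNA chr16: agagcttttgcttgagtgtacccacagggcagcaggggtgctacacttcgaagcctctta
lincRNA chr9: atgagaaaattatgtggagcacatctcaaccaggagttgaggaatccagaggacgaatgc
Gm2138: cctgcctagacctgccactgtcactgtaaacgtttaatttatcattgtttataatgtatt

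Next came A_55_P1993463, an unnamed probe, at -0.48, 2.10 and 2.17 (2.66), AI646519 at -1.35, 1.09 and 1.17 (2.52) and a lincRNA probe in chr9:14480441-14483362 at -0.70, 0.92 and 1.40 (2.10). These were already high in BP10, and the other probe above background in the chromosome 9 region differed by 0.37. Vgf, a secreted neuropeptide precursor, had -0.11, -0.25 and 1.97 (2.08), and Chchd10, a mitochondrial protein of the cristae, had 2.81, 2.04 and 4.46 (1.65). Both were highest in BP40 and lowest in BP10. Vgf and AI646519 passed the brightness floor only through BP40. Rn18s, the 18S ribosomal RNA, had 6.21, 6.98 and 8.11 (1.90) at an edge spot with a local median of 0.33, whereas Rn28s1, the 28S ribosomal RNA, differed by 0.60 and Rn4.5s by 0.25. The Rn18s probe lies at chr17:39985058-39985117 (+) in mm9.
Rn18s: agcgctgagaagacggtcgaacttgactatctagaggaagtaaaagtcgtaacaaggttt

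Other rises of this size were mostly edge spots. Vdac2, a mitochondrial outer membrane channel, had 4.16, 5.27 and 6.04 (1.88) at the edge, and Xntrpc had -0.29, 1.26 and 1.41 (1.70), also at the edge. Dim second probes above background on all arrays differed by -0.41 for Xntrpc and by 0.25 for Whrn. LOC790956 (1.62) and Whrn (1.54) lay away from the edge, and NAP000003-021 (1.86), LOC635326 (1.81), A_66_P135694 (1.78) and ENSMUST00000090257 (1.67) were edge spots without a RefSeq name. The 20 also include Gsta4, Gdf15 and Id1.

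The 20 largest falls, from -3.41 to -1.48, held 14 RefSeq-named genes and 2 edge spots. Syt10, a synaptotagmin, had 4.39, 2.04 and 0.99 (-3.41), and the spot diagonally beside it, ENSMUST00000105060, had 3.32, 3.19 and 0.55 (-2.77). Khsrp, an RNA-binding splicing regulator, had 4.92, 4.19 and 2.68 (-2.24), and a dim second probe of it differed by -0.41. Gm4522 (-1.44) and Map2k7 (-1.22, with -0.10 at a dim second probe) lay within a few spots of Khsrp. In all, 20 pairs of spots past 2-fold were at most 2 rows and 2 columns apart, and 19 of these pairs changed in the same direction. Whether local array effects entered these values was not tested.

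The other falls were spread over roles. Ctsc, a lysosomal protease, had 1.58, 0.62 and 0.11 (-1.48), and a dim second probe differed by -1.5. Lrrc15, a membrane protein of matrix-producing fibroblasts, had 3.99, 3.61 and 2.44 (-1.55). Aqp1, a water channel, had 0.85, 0.10 and -0.95 (-1.79), and its mean of 0.00 puts it just above the brightness floor. Aqp1 and the chr3 lincRNA probe named below passed this floor only through control. Nova2 (-1.78), Ecscr (-1.78), Clca3a2 (-1.55), Serpina3g, Lgr5, Dkk2, Col11a1 and Il1rl1 were also among the RefSeq-named ones. The unnamed or noncoding ones were A_55_P2155572 (-3.19, at the edge with a pixel SD of 32.4%), NAP061238-1 (-1.61), ENSMUST00000101310 (-1.51), and lincRNA probes in chr3:126989696-127112471 (-1.80) and chr2:77715502-77719430 (-1.62).

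The calls divided by naming as follows. Of 8872 RefSeq-named bright genes 48 were higher (0.541%) and 67 lower (0.755%), and of 1978 known only by the name in the array file 42 were higher (2.12%) and 34 lower (1.72%). Among 548 bright lincRNA transcripts 13 were higher and 17 lower. Some lincRNA regions were measured by several probes. In chr19:5798135-5800557 all 3 bright probes were higher, by 1.26, 1.24 and 1.55. In chr13:15947521-15999246 the bright probe was lower by 1.47 and 3 dimmer ones differed by -2.10 to -1.57. In chr2:128137419-128141735 and chr2:128211990-128215223, whose probes lie 74.5 kb apart, the bright probes differed by -1.04 and -1.03 and 4 dimmer ones by -0.99 to -0.83. In chr13:73472571-73483846 the bright probe was higher (1.27) and the 3 dimmer ones above background on all arrays had -1.60 to -0.63.

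Second probes gave a check by another sequence. Of the 191 genes past 2-fold 16 had other bright probes, 17 in number. Of these 17 probes 5 were past 2-fold in the same direction, 9 past 1.5-fold, 3 had the same sign below 1.5-fold and 5 the opposite sign. Those past 1.5-fold belonged to Il1rl1, Mest, Loxl4, Fbn2, AW551984, Creg1, a chromosome 8 lincRNA (0.59) and the chromosome 19 lincRNA. Gstm1, Airn (-0.53) and ENSMUST00000090257 (0.46) kept the sign. Opposite signs were found for Inpp5e (-1.24 and 0.40), Qdpr (-1.09 and 0.26), Wdfy1 (-1.05 and 0.12), Pitpna (1.09 and -0.08) and Rgl1 (1.09 and -0.63), and the last 2 were edge spots. With dimmer probes that were above background on all arrays, 58 genes had 106 other probes, of which 20 were past 2-fold in the same direction, 45 past 1.5-fold, 30 of the same sign below that and 31 of the opposite sign.

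**Figure D5:**
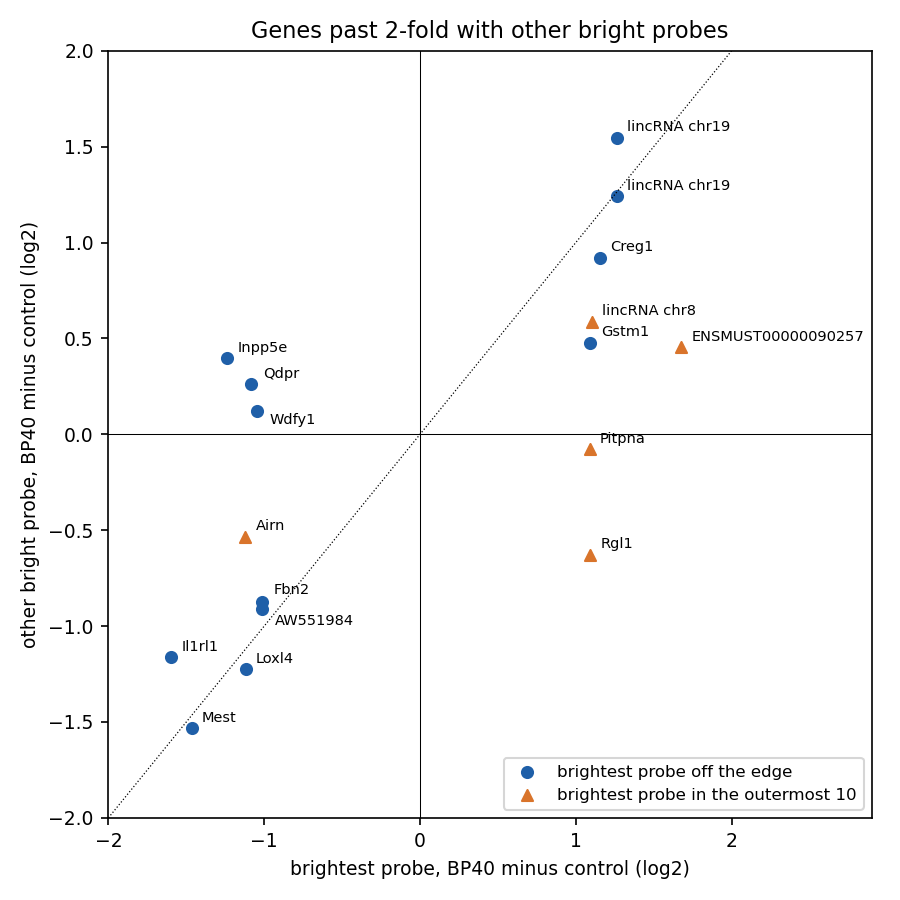
For genes past 2-fold that have other bright probes, the difference of the other probe (BP40 minus control, log2, vertical axis) is plotted against that of the brightest probe (horizontal axis), with equality as a dotted line. Mest, Loxl4 and the chromosome 19 lincRNA lie near the line, and 5 probes lie in the opposite quadrants.

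The probes behind several named genes are given by their first 30 bases, since each value rests on a single sequence. Coordinates are those of the whole 60-base probe in mm9. Gsta4 spans chr9:78046172-78047344, which is longer than the probe. Nqo1 is at chr8:109912440-109912499, Id1 at chr2:152563083-152563142, Gdf15 at chr8:73153293-73153352, Col3a1 at chr1:45405589-45405648 and Il1rl1 at chr1:40504769-40504828.
Gsta4: gctggagtggagtttgaggaagaatttctt
Nqo1: taggtcatttatgcaatattcgccattttc
Id1: attgttttacaatagttctatgggggtgag
Gdf15: ctgggtggatggattgtgtatttatttaaa
Col3a1: ataagccaaactctctgaaaccccagcaaa
Il1rl1: ctctgtaacaggatcttttgtctagatttc

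Base composition moved with the difference over most classes. Bright genes with a probe GC content above 30% and up to 35% had a median of -0.02 (2676 genes), and those above 50% and up to 55% had 0.18 (1370 genes), but the 69 genes above 55% and up to 60% had -0.03, with 6 at least 2-fold lower (8.70%). By brightness the medians lay between 0.03 and 0.07, and the SD over genes was 0.49 at a mean signal of 0 to 1 and 0.33 above 6. Chromosome medians lay between -0.00 and 0.11 for the autosomes and X, and no chromosome held more than 8 genes past 2-fold in a direction.

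Near the thresholds, Prl2c1 (1.0) and Gm5878 (1.01) were the last genes counted as higher, and ENSMUST00000108091 (1.0, below 1 before rounding) and a lincRNA probe on chromosome 19 (0.99) were just short. On the lower side A_55_P2142808 and Gm2742 (both -1.0) were counted and Apobec3 (-1.0, above -1 before rounding) and LOC546711 (-0.99) were not. At the brightness floor, Aqp1 and Gpaa1 (both 0.00) were kept, and Gm10523 and TC1735695, at just below 0, were not.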

How the data were processed

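The authors deposited the scanner output of 3 Agilent whole genome arrays, made with Feature Extraction 10.5.1.1 per the file headers. As deposited by the authors, the intensity of each spot had background and spatial trend removed, array by array, with no scaling across arrays. Values in the series table were equal for 100% of spots within a relative tolerance of 0.0001, and 0 columns were left unmapped. Log2 of the processed intensity was taken, outlier-flagged spots were dropped, spots of a probe were averaged, and each array's 75th percentile over gene spots was subtracted. The number of arrays limits the precision.

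Probes were named by RefSeq accession or symbol (GRCm38.p6), otherwise by the BP40 array file. In the control file 96.9% of probes had the same name and 100% the same sequence. Sequences are RefSeq promoters and the file's probes.

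A gene was called at an absolute difference of 1. Members, the 54 gene lists and the tests were chosen with earlier results of these data known. Named genes are the 20 largest rises and falls, list genes past 2-fold or else up to 3 with the largest difference, PCR-measured and sex-linked genes, and genes at the thresholds. Other genes were named after their values were seen. Not reported here are 1 gene among the largest falls, dim genes and the BP10 comparisons in their own right.

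Alternatives concerned scaling, background correction, filters, fold, probe choice and, added after seeing the data, array position, base composition and naming. Scaling alternatives kept the members. Python 3.11.15, numpy 2.4.6, pandas 2.3.3, scipy 1.17.1 and, for quantile and normexp, R 4.3.3 with limma 3.58.1 were used. The step that counts changed genes was checked on simulated data.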

Additional observations from a re-analysis of the deposited data

Results flagged for a closer look

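The E1A spike-in probes, control RNA added at labeling and not part of the gene comparison, were higher on the BP40 array after scaling. Over the 7 bright ones the median BP40 minus control difference was 0.79, from 0.12 to 0.98, against 0.05 for bright genes. They were picked out because their signal lies outside the main measurement, and their part in the gene differences was not tested.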

How the results depend on the processing

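No paired analysis was possible because there is a single array per condition, and none could be left out. Alternatives were compared for 46 lists and up to 144 named genes. The fold thresholds and the naming were not run for genes, and 108 genes remained at a brightness above 1 and 112 without the edge. No called gene that was present reversed its sign. Most alternatives kept a gene's probe and shifted its value little, so a reversal was hardly possible there. List medians were not checked for reversal. Inpp5e, Qdpr, Wdfy1, Pitpna and Rgl1, whose second bright probe had the opposite sign, were not among the genes compared. Of all 10850 bright genes, 0.829% were at least 2-fold higher and 0.931% lower. These were 5.06% and 4.62% at 1.5-fold and 0.175% and 0.147% at 3-fold. Lower genes were 1.68% (221 genes) at a brightness above -1, with a share of higher among called genes of 36.5%, and 0.696% (60 genes) at a brightness above 1. The share of higher genes, 47.1% (exact Clopper-Pearson interval 39.9 to 54.5, counting error only), was 36.2% with the percentile over probes above background, 39.0% with the median subtracted and 39.8% with normexp. Among the alternatives added after seeing the data, leaving out the outermost 10 columns and rows gave 0.595% higher (54 genes) and a share of 37.2%, subtracting the local median 0.488% (53 genes) and 30.8%, subtracting the GC class median a share of 33.2%, and RefSeq-named genes alone 0.541% higher and 0.755% lower. Median differences moved by more than 0.14 for chemokines (-0.46 at a brightness above -1 and -0.86 above 1), AHR targets (-0.36 above 1), glutathione transferases (0.11 without the edge) and NF-kB genes (-0.36 by GC class). Named genes moved by more than 0.14 in 33 cases under normexp, 9 with the median over member probes, 42 with the local median and 21 by GC class. Pgd went from 1.03 to 0.54 under normexp, and Rpsa, which was not past 2-fold, from 0.58 to -0.76 with the median over its probes. The causes were not tested.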
